A study of Gallus gallus with 4 samples.

Results

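Splicing factors and other nuclear RNA-binding proteins were examined in the primitive streak region of chicken embryos that overexpressed HoxA13. The members were taken by gene symbol. They comprise the SNRP, SF3A, SF3B, U2AF, PRPF, LSM, SRSF, HNRNP and numbered RBM genes together with the numbered DDX helicase genes, without the germ cell gene DDX4. On the array 323 of 38535 probe sets carried such a symbol as their only one, and they stood for 118 of the 13008 genes with a symbol. All 323 were found by gene number in the RefSeq gene table, and 0 symbols differed from it. By family there were 10 SNRP genes, 8 of SF3A, SF3B and U2AF, 9 PRPF, 12 LSM, 11 SRSF, 13 HNRNP, 28 RBM and 27 DDX genes.

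The study used 2 arrays of embryos electroporated with a vector for HoxA13 and an H2B-Venus reporter, a nuclear fluorescent protein, and 2 arrays of embryos given a vector for H2B-Venus alone. HoxA13 was placed under the CAGGS promoter, which is active in most cell types. The eggs had been incubated for 24 h at 38 °C to stage 5 HH, and after electroporation the embryos were cultured for 14 h to 9 somites, when the streak area that holds the precursors of the presomitic mesoderm (PSM) was dissected. Each array held a pool of 7 embryos, and the labels call the arrays of a group biological replicates. The share of cells that took up the vector is not given in the sources used here. In such bulk tissue, fewer cells of a type and less RNA per cell cannot be told apart.

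Most introns are removed from pre-mRNA by the spliceosome. The U1 particle marks the start of an intron and the U2 particle its branch site, after which the U4, U6 and U5 particles join and the PRPF proteins help to form the catalytic core. SR proteins usually favour the use of an exon and hnRNP proteins often oppose it, so that their balance shapes which exons are kept. DEAD-box helicases of the DDX family remodel RNA and RNA-protein complexes, in the spliceosome as well as in the nucleolus, the cytoplasm and mitochondria, and the RBM symbols group proteins with an RNA recognition domain and varied functions.

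Signals are linear intensities in arbitrary units, 1 per probe set. Background was set for each array from its viral probe sets, at their 99th percentile, and lay at 14.28 and 14.5 on the HoxA13 arrays, against 12.82 and 16.52 on the Control arrays. Of the chicken probe sets, 40.23% and 40.0% on the HoxA13 arrays were above it, against 42.68% and 37.77% on the Control arrays. The probe set named HOXA13 gave 16.33 and 8.09 on the HoxA13 arrays, against 11.55 and 24.67 on the Control arrays. Whether it lies in the part carried by the vector is not known, so it checks nothing about the labels. Of 7 streak and PSM progenitor markers measured, 6 were above background on all 4 arrays (TBXT, FGF8, WNT3A, CDX2, CDX4 and MSGN1), while TBX6 was above it on 0. Their summed signal was 14420 and 13993 on the HoxA13 arrays, against 12725 and 11113 on the Control arrays. The sum hides unlike directions, and 0 of these genes passed limma, in which TBX6 was too dim to be tested. FGF8 had 1411 and 1637 in HoxA13, against 637.2 and 545.2 in Control. MSGN1 went the other way, with 1399 and 1244 in HoxA13, against 2040 and 1480 in Control. TBXT, WNT3A, CDX2 and CDX4 had log2 differences of 0.11 to 0.45. Of 23 markers of neural, somite, blood, endoderm, ectoderm and lateral mesoderm cells, 5 were above background on all 4 arrays and 9 on none. These 9 were not tested, nor were MYF5, TAL1, LMO2, PECAM1 and GRHL3. Among the others 1 (HHEX, a gene of endoderm and blood vessel precursors) fell in limma. The summed signal of these 23 was 2414 and 1454 on the HoxA13 arrays, against 3678 and 2982 on the Control arrays. Most of it came from EPCAM, an epithelial marker, with 1575 and 1029 on the HoxA13 arrays, against 2603 and 1687 on the Control arrays, and the part of these cells in the values below was not tested.

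Each gene was represented by its brightest probe set, judged by the mean of the 4 arrays. On this basis 103 of the 118 member genes (87.3%) were above background on every array, against 53.5% of all genes with a symbol. A gene with more probe sets has more chances of a bright one, and this comparison did not allow for that. Of the 323 member probe sets, 188 were above background on all 4 arrays and 80 on none. All 13 HNRNP genes and all 8 genes of the SF3A, SF3B and U2AF families were among the 103 genes. Another 8 genes were above background on 1 to 3 arrays, and 7 on none, namely DDX25, DDX43, RBM20, RBM43, RBM47, RBM6 and SRSF4. RBM20, known as a splicing regulator of heart muscle, had signals of at most 8.26 on any array. Dim probe sets were also found for general factors. SNRPF, a subunit of the Sm ring that encircles the spliceosomal RNAs, gave 8.58 and 0.165 on the HoxA13 arrays, against 13.35 and 9.15 on the Control arrays, and RBM8A, a core protein of the exon junction complex, gave 12.78 and 5.76 against 12.0 and 19.89. A probe set near background therefore does not show that the transcript was missing. Signals of different probe sets were not ranked, because each responds to its target with its own strength.

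The comparison asks how the transcripts of these factors differ when HoxA13 is overexpressed. No member passed the test in either direction. Differences were taken as HoxA13 minus Control on the scale of log2(intensity + 16), on which changes of dim genes are understated, and tested with limma over the 14557 chicken probe sets whose mean lay above background. These included 213 of the 323 member probe sets and 106 of the 118 genes. At an adjusted p of 0.05, 0 member probe sets were higher and 0 lower in limma, while over all probe sets tested 2 were higher (0.0137%) and 9 lower (0.0618%). An unadjusted p under 0.05 was found for 9 member probe sets (4.23%), against 5.08% of all probe sets tested. At the brightest probe set this held for 5 genes, DDX54, RBM19, HNRNPK and SF3B3 with higher and HNRNPDL with lower values in HoxA13. The smallest adjusted p of a member was 0.695, for DDX54.

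The median log2 difference of the member genes was 0.0649, beside 0.0394 for all 7957 genes tested, with 71 genes at higher values in HoxA13 (67.0%, against 56.0% of all genes) and 35 at lower ones. The quartiles of the member genes lay at -0.05 and 0.21, and those of all genes at -0.15 and 0.22. The absolute log2 difference was under 0.5 for 99 of the 106. Its median was 0.133, beside 0.187 for all genes tested. The median of the members depended on single arrays, as did that of all genes. For the members it was 0.14 without HoxA13 replicate 2, 0.18 without Control replicate 1 and 0.0134 without Control replicate 2. For all genes it was 0.055, 0.096 and -0.020 in the same order. The share of genes at higher values also fell without Control replicate 2, to 50.9% of the members, against 47.5% of all genes. Scaling mattered too. With arrays centred on the median, the member median was 0.035, beside 0.009 for all genes, with 59.4% of members higher, against 51.4%. With quantile normalization it was 0.048, beside 0.015, with 62.3% of members higher, against 52.4% of all genes.

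The intervals show what size of change in the dissected tissue as a whole the arrays could leave unseen. On the log2(intensity + 16) scale, the 95% interval lay within a 2-fold change in either direction for 84 of 106 member genes (79.2%). The same held for 71.8% of all genes tested. At the brightest probe set the interval lay within these limits for all 9 SNRP genes tested and all 10 SRSF genes tested. It did so for 11 of 13 HNRNP, 15 of 22 RBM and 17 of 24 DDX genes. Dimmer probe sets could have wider intervals, such as -0.40 to 1.29 for SRSF3 and -1.04 to 1.09 for SRSF11. Because this scale understates changes of dim genes, such as SNRPB2 with signals of 15.12 to 17.59, a larger change in their signal is not excluded. The standard errors ran from 0.12 to 0.51 with a median of 0.26. With 2 arrays per group these intervals lean on the spread that limma borrows from other probe sets of like intensity. With an offset of 0 the count of 84 became 75. It was 53 without HoxA13 replicate 1, and 0 where the borrowed spread did not depend on intensity, no offset was added and no filter was applied.

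**Figure D1:**
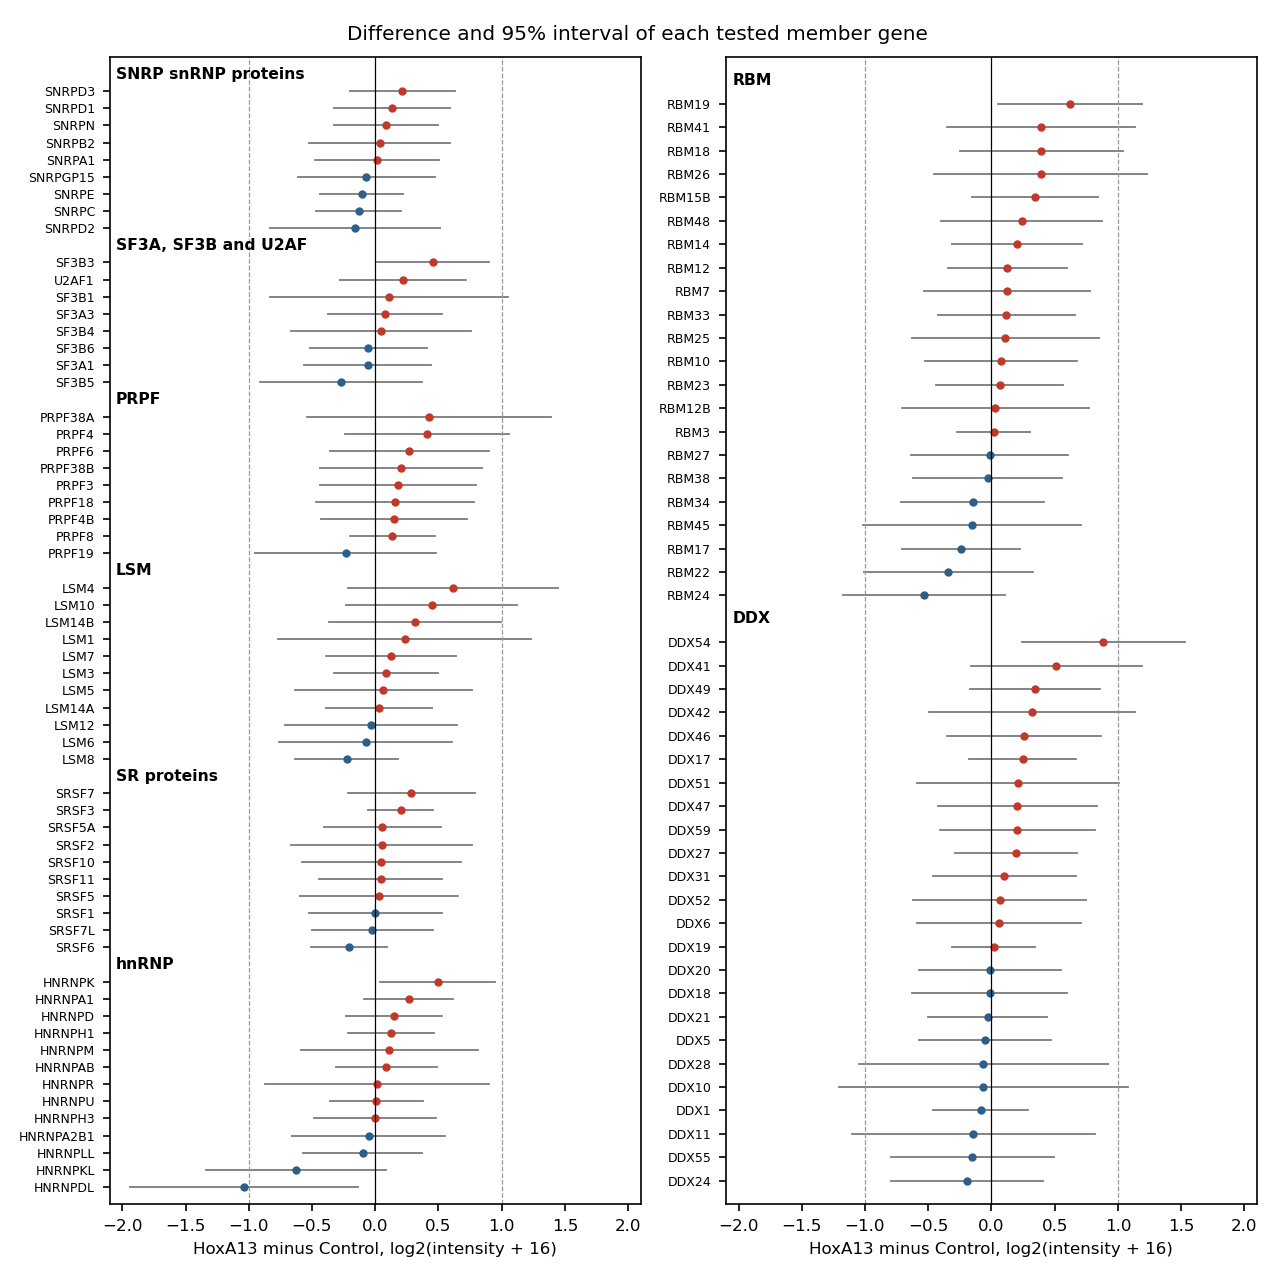
Log2 difference, HoxA13 minus Control, of each of the 106 tested member genes by family, with its 95% interval from limma. Red points are above 0 and blue points below, dashed lines mark a 2-fold change, and 84 intervals lie between them.

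The groups did not overlap, with both HoxA13 arrays above both Control arrays, in 27 of 106 member genes (25.5%), against 18.9% of all genes tested. Both HoxA13 arrays were below both Control arrays in 8 (7.55%), against 14.5% of all genes. With 2 arrays against 2, the smallest p that an exact permutation test of 1 gene allows is 0.333 (two-sided). The DDX family held 7 of the 27, the RBM family 6, the PRPF family 4, the HNRNP family 3, the SNRP, LSM and SRSF families 2 each, and the SF3A, SF3B and U2AF families 1.

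Among the proteins of the U1 and U2 particles and the Sm ring, 5 of 9 tested SNRP genes had higher values in HoxA13 and 4 lower, with a median log2 difference of 0.02. SNRPD3, a subunit of the Sm ring, had 1516 and 1613 on the HoxA13 arrays, against 1472 and 1232 on the Control arrays, a log2 difference of 0.21 ± 0.18 (SE, limma adjusted p = 0.999). SNRPC, the U1 protein that helps to recognise the start of the intron, had 2865 and 2798 on the HoxA13 arrays, against 2852 and 3379 on the Control arrays, a log2 difference of -0.13 ± 0.15. For SNRPD3 both HoxA13 arrays lay above both Control arrays by a narrow gap, and for SNRPC the groups overlapped. A second probe set of SNRPD3 had 364.7 and 384.3 in HoxA13, against 346.9 and 595.6 in Control, a difference of -0.27 ± 0.30, so its direction is not settled either. At the brightest probe sets all 9 differences of this family lay between -0.16 and 0.21.

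The SF3A and SF3B complexes belong to the U2 particle, and U2AF guides it to the end of the intron. SF3B3, a scaffold subunit of SF3B, had 1458 and 1536 on the HoxA13 arrays, against 969.3 and 1214 on the Control arrays. The groups did not overlap, and the log2 difference of 0.46 ± 0.20 did not pass (limma adjusted p = 0.965). A dimmer probe set of SF3B3 gave a difference of 0.18 and the dimmest tested one, above background on 2 arrays, -0.23. SF3B5, the smallest SF3B subunit, was near background with 17.27 and 21.96 in HoxA13, against 33.77 and 20.95 in Control. U2AF1, which reads the last bases of the intron, had 1877 and 1533 on the HoxA13 arrays, against 1747 and 1212 on the Control arrays, a log2 difference of 0.22 ± 0.22 with overlapping groups. SF3B1, which clamps the branch site and is the largest subunit of the complex, had 1608 and 896.5 on the HoxA13 arrays, against 1780 and 692.5 on the Control arrays. Here the 2 arrays within each group lay farther apart than the group means, which were 1252 ± 503 in HoxA13 and 1236 ± 769 in Control (SD, n = 2 each). The median of the 8 genes was 0.06.

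Of the 9 PRPF genes, 8 had higher values in HoxA13 (88.9%, against 56.0% of all genes) and 1 lower, with a median of 0.18, beside 0.0394 for all genes tested. Both HoxA13 arrays lay above both Control arrays in 4 of the 9 (44.4%, against 18.9% of all genes), PRPF3, PRPF38B, PRPF4 and PRPF8. A dimmer probe set of PRPF38B gave -0.32 ± 0.33 with overlapping groups. PRPF4B, with 0.15 at its brightest probe set, had -0.04 and -0.12 at its dimmer tested ones. The direction of these genes is therefore not settled. PRPF8, the protein at the centre of the catalytic core, had 2734 and 2551 on the HoxA13 arrays, against 2433 and 2369 on the Control arrays, 1.10-fold with a log2 difference of 0.14 ± 0.15. Its second tested probe set gave 453.4 and 473.8 in HoxA13, against 330.3 and 288.1 in Control, a log2 difference of 0.56 ± 0.24 (limma adjusted p = 0.967). Both probe sets thus had higher values in HoxA13, with differences of unlike size. PRPF4, a protein of the U4 and U6 particles, was dim, with 33.3 and 21.21 in HoxA13, against 12.31 and 20.63 in Control, where 1 of the 2 arrays was not above background. PRPF19, a ubiquitin ligase of the activated spliceosome, had 60.95 and 42.18 in HoxA13, against 75.9 and 51.18 in Control. At the brightest probe sets it was the one PRPF gene with a lower mean. Its other probe set, too dim to be tested, went the other way without overlap. It had 21.79 and 21.48 in HoxA13, against 8.36 and 6.30 in Control, so the direction of PRPF19 is not settled.

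The LSM proteins form rings on RNA, and LSM2 to LSM8 hold the end of the U6 RNA. Of 11 tested genes 8 had higher values in HoxA13 and 3 lower (median 0.09). LSM4 had 69.13 and 154.8 on the HoxA13 arrays, against 63.24 and 62.14 on the Control arrays, a log2 difference of 0.62 ± 0.37 that rests on HoxA13 replicate 2. Without that array it was 0.11. LSM8, the subunit that sets the nuclear ring apart from the cytoplasmic one, had 1242 and 1300 in HoxA13, against 1564 and 1418 in Control. Both HoxA13 arrays were below both Control arrays, with a log2 difference of -0.23 ± 0.18 (limma adjusted p = 0.999). A probe set of LSM8 near background went the other way, with 15.93 and 17.98 in HoxA13, against 11.95 and 15.34 in Control (0.15 ± 0.25), so the direction is not settled.

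Among the SR proteins 7 of 10 tested genes had higher values and 3 lower, with a median of 0.04, and all lay between -0.21 and 0.28. SRSF3, the shortest member of the family in vertebrates, had 5506 and 5554 on the HoxA13 arrays, against 4857 and 4764 on the Control arrays. The replicates were close, with 5530 ± 33.6 in HoxA13 and 4811 ± 65.6 in Control (mean ± SD, n = 2 each), and the groups did not overlap. This 1.15-fold difference (log2 0.20 ± 0.12) did not pass (limma adjusted p = 0.999). A second bright probe set of SRSF3 gave 4066 and 4940 in HoxA13, against 3553 and 2841 in Control, a log2 difference of 0.49 ± 0.16 (limma adjusted p = 0.717). The dimmest tested one had overlapping groups, with 66.89 and 52.09 against 62.05 and 22.96. SRSF6 pointed the other way at its brightest probe set, with 3036 and 3109 in HoxA13, against 3541 and 3568 in Control (log2 difference -0.21 ± 0.13). Its second probe set gave 3413 and 3429 in HoxA13, against 3386 and 2977 in Control, a difference of 0.11, so the direction for SRSF6 is open to the choice of probe set. SRSF1, the first SR protein to be studied in detail, had 2414 and 1726 in HoxA13, against 2481 and 1679 in Control, with means of 2070 ± 487 in HoxA13 and 2080 ± 567 in Control (SD, n = 2 each).

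The hnRNP genes held the lowest log2 difference of any member. HNRNPDL, a relative of hnRNP D, had 239.1 and 92.25 on the HoxA13 arrays, against 284.2 and 371.6 on the Control arrays. The log2 difference was -1.04 ± 0.40 (limma adjusted p = 0.877), and most of it came from HoxA13 replicate 2, without which it was -0.42. Its other probe set gave 248.8 and 157.9 in HoxA13, against 254.5 and 205.3 in Control, a difference of -0.19 with overlapping groups. HNRNPK, which binds runs of cytosines, had 1225 and 1114 on the HoxA13 arrays, against 876.3 and 774.5 on the Control arrays. Means were 1169 ± 78.9 in HoxA13 and 825.4 ± 72.0 in Control (SD, n = 2 each), 1.41-fold, with no overlap and a log2 difference of 0.50 ± 0.20 (limma adjusted p = 0.936). These values rest on 1 tested probe set. HNRNPKL went the other way without overlap, with 127.8 and 125.1 in HoxA13, against 265 and 156.4 in Control (-0.63 ± 0.31, limma adjusted p = 0.999). Its 4 tested probe sets ran from -0.63 to -0.28, but not all separated the groups. The groups overlapped at a probe set with 190.2 and 82.18 in HoxA13, against 282.8 and 99.25 in Control. They also overlapped at a set with 46.55 and 21.45 against 89.68 and 30.48. At the dimmest set they did not overlap, with 25.88 and 27.54 against 36.22 and 35.17. HNRNPA1, an antagonist of SR proteins in splice site choice, had 2656 and 2961 in HoxA13, against 2173 and 2500 in Control, a log2 difference of 0.26 ± 0.16 at its brightest probe set. Its 3 other tested probe sets gave differences of 0.06, -0.10 and -0.12. The set with -0.12 had 1984 and 1874 in HoxA13, against 2195 and 1998 in Control, lower without overlap. The direction of HNRNPA1 is therefore not settled. Of the 13 genes, 9 had higher and 4 lower values, and the median was 0.01.

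**Figure D2:**
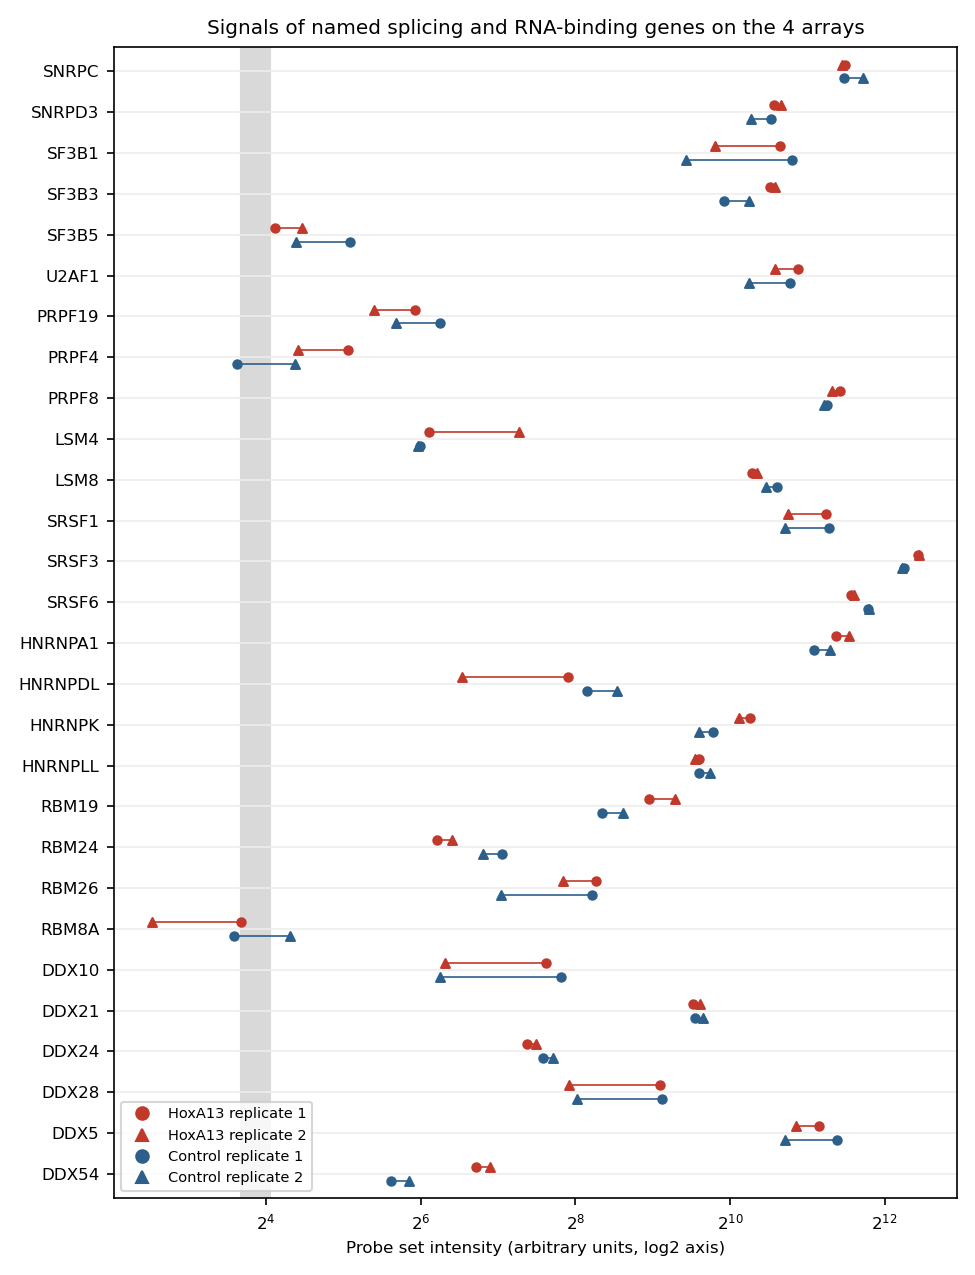
Signals of the 28 named member genes on the 4 arrays on a log2 axis, by family, with HoxA13 (red) above Control (blue) for each gene, replicate 1 as circles, replicate 2 as triangles and a line joining the 2 arrays of a group. The grey band spans the backgrounds of the 4 arrays; SRSF3 and HNRNPK show separated groups, while SF3B1, SRSF1, DDX10 and DDX28 show replicates that lie farther apart than the groups.

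RBM proteins have no common function. Of 22 tested genes, 15 had higher values in HoxA13 (68.2%, against 56.0% of all genes) and 7 lower. The median was 0.09, beside 0.0394 for all genes. RBM19, a nucleolar protein of ribosome assembly, had 495.6 and 626 on the HoxA13 arrays, against 325.3 and 392.2 on the Control arrays, a log2 difference of 0.62 ± 0.25 (limma adjusted p = 0.936). Its 2 dimmer probe sets also had no overlap, with differences of 0.33 and 0.18 and signals of at most 52.63. RBM24, a splicing regulator of heart and skeletal muscle, had 74.21 and 84.68 in HoxA13, against 132.5 and 111.5 in Control, a log2 difference of -0.53 ± 0.28 without overlap. Its second tested probe set gave 0.10. Of the 4 tested RBM genes listed with the spliceosome or exon junction, 2 (RBM10 and RBM25) were higher and 2 (RBM17 and RBM22) lower at the brightest probe set, with 0 calls. RBM25 was higher only there (0.11), and its other tested probe sets were lower, down to -0.28. The tested probe sets of RBM17 ran from -0.27 to 0.49 and those of RBM10 from -0.10 to 0.27. Those of RBM22 were both lower (-0.34 and -0.27).

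The DDX symbols cover more than splicing. Of 24 tested genes, 12 belong to a list of helicases of ribosome biogenesis and 5 to a list of helicases of the spliceosome, while others act in mitochondria or the cytoplasm, so that not every member is a splicing factor. DDX54, a nucleolar helicase also known as a corepressor of nuclear receptors, had 104.7 and 118.7 on the HoxA13 arrays, against 48.85 and 57.4 on the Control arrays. Both HoxA13 arrays were clearly above both Control arrays, 1.85-fold on this scale (log2 difference 0.89 ± 0.29), but the gene did not pass (limma adjusted p = 0.695). It was represented by a single probe set. DDX24, another nucleolar helicase, had 166 and 179.4 in HoxA13, against 190.6 and 209.6 in Control (-0.20 ± 0.27), and DDX21, which acts in ribosomal RNA transcription and processing, had 736.2 and 781.1 against 750.4 and 800.4 (-0.03 ± 0.21). Dimmer probe sets gave 0.16 and -0.04 for DDX24 and 0.26 for DDX21, all with overlapping groups. Of the 12 genes, 7 had higher values and 5 lower, with a median of 0.08.

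Among the 5 helicases of the spliceosome list, DDX17, DDX41 and DDX46 had both HoxA13 arrays above both Control arrays, while DDX42 and DDX5 had overlapping groups. That is 60.0% of a list of 5, against 18.9% of all genes, and the median was 0.26, beside 0.0394 for all genes. A second and dimmer probe set of DDX46 had overlapping groups (-0.05). DDX17 had 1283 and 1442 on the HoxA13 arrays, against 1116 and 1173 on the Control arrays. Its close relative DDX5, a coregulator of transcription and splicing, had 2273 and 1848 in HoxA13, against 2679 and 1681 in Control, a log2 difference of -0.05 ± 0.23. DDX17, DDX41 and DDX46 were singled out after their values were seen, and 0 of the 5 passed.

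Genes with several probe sets show how far a result depends on the choice of probe set. Whether unlike values come from error or from different transcripts of a gene was not tested. Of 62 member genes with more than 1 tested probe set, all probe sets pointed the same way in 21 (33.9%), against 52.1% of 2659 such genes over the whole array. The member genes also had smaller absolute log2 differences (median 0.133, beside 0.187 for all genes), and the part of this in the shares was not tested. These shares depend on how many probe sets a gene has. With exactly 2 tested probe sets they pointed the same way in 14 of 33 member genes (42.4%), against 60.1% of 1962 genes over the array, and with 3 or more in 7 of 29 (24.1%), against 29.3% of 697 genes. The median range of the log2 difference was 0.31 for members and 0.24 for all genes with 2 probe sets, and 0.38 for members and 0.45 for all genes with 3 or more. The widest range was that of HNRNPLL, a splicing regulator known from lymphocytes, with 1.34 over 5 probe sets. Its brightest gave 776 and 746 in HoxA13, against 776.3 and 857.9 in Control (-0.10 ± 0.21), the next 300.1 and 224.2 against 468 and 362.8 (-0.64 ± 0.28), and another 138.3 and 80.01 against 102.7 and 31.08 (0.70 ± 0.45). RBM26 had a range of 1.12 over 4 probe sets, with 0.39 ± 0.37 at the brightest and -0.73 ± 0.43 at the lowest. Of the member probe sets, 102 have names ending in _s_at, 22 in _a_at and 4 in _x_at, which Affymetrix uses for sets that can match several transcripts. Related family members may therefore share signal at the sets ending in _s_at or _x_at.

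**Figure D3:**
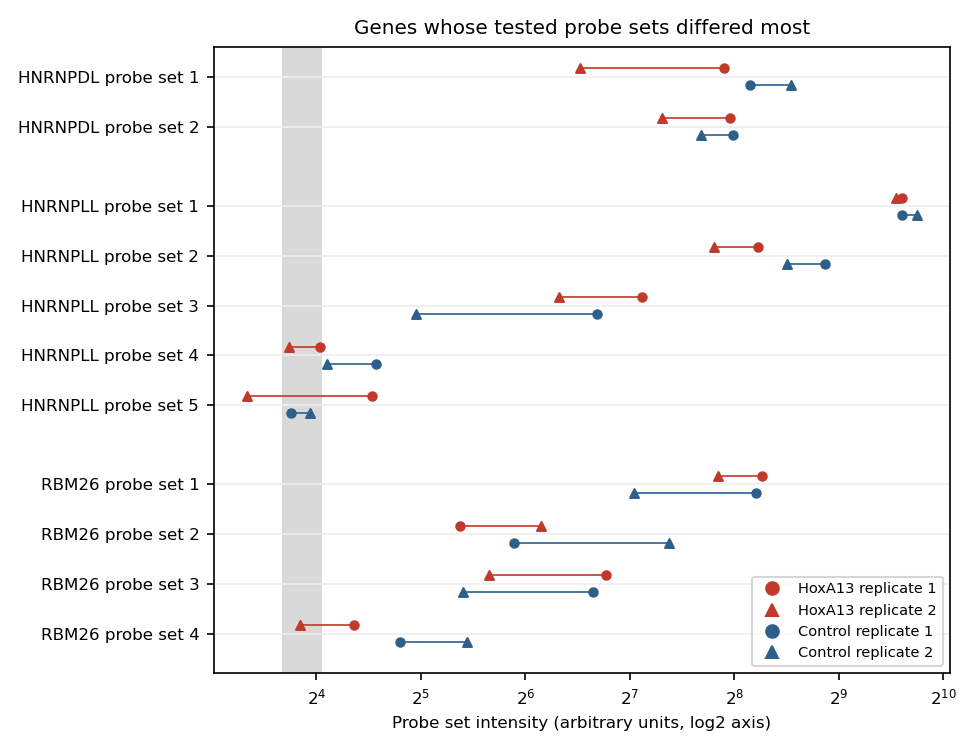
Signals on the 4 arrays of each tested probe set of the 3 member genes whose probe sets differed most, on a log2 axis, with HoxA13 (red) above Control (blue), replicate 1 as circles and replicate 2 as triangles. HNRNPLL and RBM26 each have probe sets with higher and probe sets with lower mean log2 signal in HoxA13. The grey band spans the backgrounds of the arrays.

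Arrays of equal replicate number resembled each other in many members. Both replicate 2 arrays were below both replicate 1 arrays in 35 of 106 genes (33.0%), against 27.4% of all genes, and above them in 19 (17.9%), against 16.7% of all genes. The shift by number was larger than the difference between the groups in 62 genes (58.5%), against 55.4% of all genes. The largest shift was that of DDX10, a helicase of ribosome biogenesis, with 79.26 on HoxA13 replicate 2 and 76.18 on Control replicate 2, against 197.2 on HoxA13 replicate 1 and 225.3 on Control replicate 1, a log2 shift of -1.27. DDX28, a mitochondrial helicase, had 241.2 on HoxA13 replicate 2 and 259.4 on Control replicate 2, against 545.5 on HoxA13 replicate 1 and 557.7 on Control replicate 1 (-1.09). A dimmer probe set of DDX28 instead separated the groups, with 42.98 and 42.8 in HoxA13, against 26.72 and 27.91 in Control, a log2 difference of 0.44 ± 0.28. SF3B1 was shifted by -1.09, while a second and dim probe set of it was shifted by 0.20. The shift was downward without overlap in 6 of 13 HNRNP and 5 of 10 SRSF genes, SRSF1 and SRSF2 among them.

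What the replicate number stands for is not stated in the labels. For each of the 18 bacterial and phage spike-in probe sets, which do not come from the embryos, both replicate 2 signals exceeded both replicate 1 signals. The median log2 shift was 0.76, and the part of this shift in that of the members was not tested. Within replicate 1 and within replicate 2 the sign of the difference HoxA13 minus Control was positive both times in 44 member genes (41.5%, against 31.7% of all genes), negative both times in 16 (15.1%, against 24.2%) and opposite in 46.

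**Figure D4:**
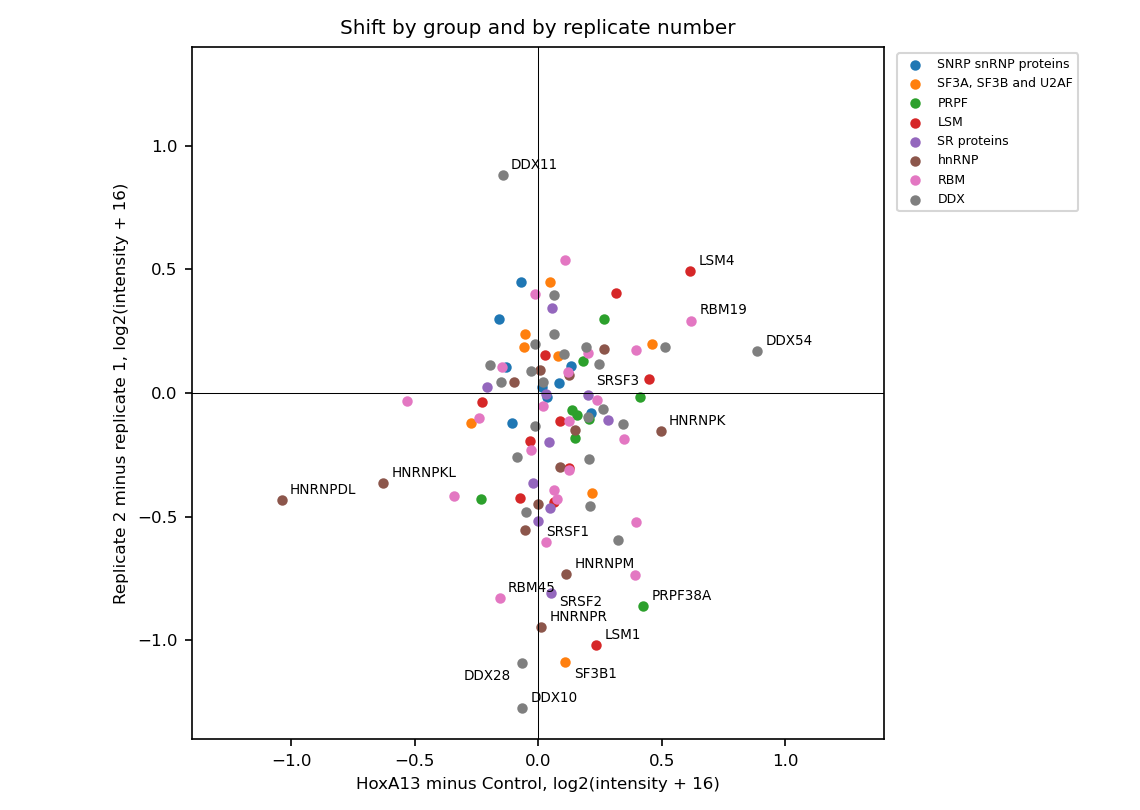
Each of the 106 tested member genes by its difference between groups, HoxA13 minus Control (x), and its difference between replicate numbers, replicate 2 minus replicate 1 (y), both on the log2(intensity + 16) scale and coloured by family. DDX10, DDX28 and SF3B1 lie near 0 on x and below -1 on y, while DDX54 and RBM19 lie to the right with y values of 0.17 and 0.29.

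Splicing genes with other symbols, among them further proteins of the spliceosome, the SR protein kinases, the SMN complex and tissue regulators, were put in a separate list. Of its 88 genes 72 were measured and 65 tested, with 0 calls higher and 0 lower. In 37 the values were higher in HoxA13 and in 28 lower, with a median log2 difference of 0.03, and the groups did not overlap in 10 as higher and 8 as lower (15.4% and 12.3%, against 18.9% and 14.5% of all genes). CELF2, a regulator of alternative splicing and mRNA stability in heart and brain, had 27.21 and 33.38 on the HoxA13 arrays, against 94.25 and 85.22 on the Control arrays. Its log2 difference was -1.19 ± 0.29 (limma adjusted p = 0.372), farther from 0 than that of any member. TRA2B, an SR-like protein that promotes exon use, had 1336 and 1161 in HoxA13, against 1642 and 2949 in Control (-0.81 ± 0.26, limma adjusted p = 0.694). KHDRBS3, a STAR family splicing regulator, had 278.8 and 188.4 in HoxA13, against 162 and 56.01 in Control (1.12 ± 0.43). GEMIN5, the protein of the SMN complex that binds snRNAs, had 24.4 and 37.18 in HoxA13, against 12.46 and 15.5 in Control, neither of which was above background. These 4 genes were picked from the list for the smallest unadjusted limma p in each direction, which favours separated groups. That their groups did not overlap is therefore no finding of its own. None of them passed over all probe sets.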

How the data were processed

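The deposited values are linear intensities of a chicken Affymetrix array, 1 per probe set, for 4 arrays. Per the labels' protocols the RNA was amplified in 2 cycles before hybridisation. R 2.12.1 is the one tool named in the submitters' processing notes. How probes were summarised, corrected for background and scaled is not given in the sources used here. The intensities entered the analysis unchanged. The table held 37693 chicken, 689 viral, 57 reporter and 96 control probe sets. Gene names came from the platform annotation, in which 27166 chicken probe sets had 1 symbol, 177 had several and 10350 had none. Another 3 probe sets name a member together with a second gene and were left out.

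Values were taken as log2(intensity + 16). Probe sets were tested where their mean over 4 arrays exceeded the mean background, with limma 3.58.1 in R 4.3.3 (lmFit, eBayes with trend and robust estimation), two-sided, Benjamini-Hochberg over all 14557, threshold 0.05. The fit was run on simulated data with independent noise on each array. These hold no shift shared by replicate number, so they cannot show how such a shift affects the fit. P-values measure the spread between the arrays of a group, each of which held a pool of embryos. The main fit had no block, so this spread includes any shift by replicate number. The number of arrays limits the precision. No set test was made, and percentages over all genes stand beside the counts.

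Members and lists were chosen with earlier results of these data known. Genes were named by a rule. It took the smallest p in each direction in each family, 9 fixed genes and the 3 with the widest range between probe sets. It also took the 3 with the largest shift by replicate number. From the list outside the symbols came 4 genes, those with the smallest unadjusted p in each direction. Others are named as examples. Alternatives covered the offset, filter, background percentile, prior, scaling, replicate number, single arrays and the choice of probe set. Gene coordinates are not printed because the files name no genome build.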

Additional observations from a re-analysis of the deposited data

How the results depend on the processing

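No member probe set passed limma under any of the 14 alternatives fitted on probe sets (0 higher and 0 lower), nor did a member gene where its probe sets were averaged (lowest adjusted p 0.449). Over all 15 alternatives the lowest adjusted p of a member gene was 0.152, for DDX54. The probe sets called over the whole array changed more. From 2 higher and 9 lower they went to 0 and 2 with an offset of 0, 0 and 1 with no filter, 0 and 1 with a constant prior, 0 and 0 with these 3 changes together, and 1 higher with background at the 95th percentile. Leaving out 1 array gave 0 to 16 higher and 4 to 40 lower, the most without Control replicate 1. With the replicate number as a block there were 60 higher and 126 lower, of which 0 were members. The deviations of equal-numbered arrays correlated at 0.32 over the tested probe sets, but the labels do not say that the number marks a shared day or litter. Without 1 array the member genes without overlap numbered 41 to 60 higher and 17 to 33 lower, since 3 arrays separate more easily. As shares these were 38.7% to 56.6% higher, against 31.98% to 44.9% of all genes, and 16.04% to 31.1% lower, against 27.3% to 36.4% of all genes. The median member difference was then 0.0134 to 0.18, beside -0.020 to 0.096 for all genes. Under the other alternatives the member genes without overlap numbered 20 to 29 higher and 4 to 12 lower, with 4 lower where probe sets were averaged. Shares of all genes are not given for these settings, so these counts say nothing particular to the members. The genes with an interval within a 2-fold change numbered 75 with offset 0 alone and 53 to 76 without 1 array. They numbered 0 with offset 0, no filter and constant prior.

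Of 27 named genes with a test, 18 kept their sign under all 15 alternatives. The sign turned for SRSF1 with quantile normalization (0.0132), and with averaged probe sets for SNRPD3 (-0.0289), SF3B1 (-0.11), DDX21 (0.11), RBM26 (-0.20) and DDX28 (0.19). Without 1 array SRSF1 ran from -0.28 to 0.28, SF3B1 from -0.56 to 0.78, DDX21 from -0.0764 to 0.0148, DDX5 from -0.38 to 0.28, DDX10 from -0.76 to 0.63, DDX28 from -0.63 to 0.50, U2AF1 from -0.042 to 0.48 and RBM26 from -0.15 to 0.93. The cause was not tested.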
